A study of Mus musculus with 10 samples.

Results

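The genes described here are the secreted and membrane-bound proteases that cut the extracellular matrix, and their tissue inhibitors. They are every gene whose name on the array is Mmp (matrix metalloproteinase), Timp (tissue inhibitor of metalloproteinases), Adamts (a disintegrin and metalloproteinase with thrombospondin motifs) or Adamtsl (ADAMTS-like) followed by a number. The rule uses the name alone, but it was chosen with earlier results of these data known. They number 51 of the 34717 gene names on the array, and 74 probes read them. The brightest probe stood for a gene. The study measured total RNA of 10 cultures of mouse mesenchymal stem cells, the stromal cells that can form bone, cartilage and fat, on single-colour Agilent arrays. Its question was whether the state of differentiation at which the tumor suppressors Rb and p53 are lost shapes the sarcoma that follows.

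There were 5 groups of 2 independent cultures each, all on the FVB background and, per the labels, collected in exponential growth between passages 2 and 5. Wild-type BM-MSC came from bone marrow and wild-type ASC from fat, and no osteogenic treatment is named for either. Null BM-MSC and null ASC carried RbloxP/loxP and p53loxP/loxP alleles, were first held in osteogenic medium for 10 days and were then infected with Ad-CMV-Cre, an adenovirus that expresses Cre recombinase from the CMV promoter. Their source labels instead name Rb-/-p53-/- mice as the origin, so the labels leave the point of deletion unsettled. The labels call null BM-MSC tumorigenic and null ASC non-tumorigenic. The last group is a tumor cell line grown out of a subcutaneous tumor that such null BM-MSC formed in NSG mice, which lack mature lymphocytes but keep myeloid cells. Both of its arrays come from that line, so they carry no spread between tumors. The sources used here do not give the age or sex of the mice. Null cells differ from wild-type cells in the 2 deleted genes, in the osteogenic priming and in the virus, as far as the labels say, and the parts of these 3 cannot be told apart.

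Matrix metalloproteinases are zinc enzymes made as inactive precursors. Collagenases cut fibrillar collagen, gelatinases cut the unwound fragments and basement membrane collagen, stromelysins cut other matrix proteins and activate other precursors, and the membrane-anchored members act at the cell surface. ADAMTS proteases cut proteoglycans such as aggrecan and versican, trim procollagen or work on microfibrils, and the ADAMTS-like proteins share their ancillary domains but have no protease domain. The TIMPs block the active site of these enzymes. In bone, osteoblasts make collagenase 3 (Mmp13), osteoclasts and myeloid cells are known sources of gelatinase B (Mmp9), and remodelling of the collagen matrix needs both the proteases and the inhibitors.

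A total of 10 of the Mmp genes lie side by side on chromosome 9, with their probes between positions 7282762 and 7697700 (mm9, the build of the array's probe coordinates), in the order Mmp13, Mmp12, Mmp1b, Mmp3, Mmp1a, Mmp10, Mmp8, Mmp27, Mmp20 and Mmp7. Of these, 5 cleared background and were tested, and Mmp1a, Mmp1b and Mmp20 were not above background on any array. The patterns of the tested genes across the groups differed, so the start-site sequences of the cluster are shown first. A search of the 250 bases before the RefSeq transcription start (assembly GRCm38.p6) for the AP-1 motif TGANTCA, which reads the same on both strands, matched 8 of the 36 members that have a promoter entry, and all 8 lie in this cluster. Counted by promoter, the motif was present in 8 of the members' 39 and in 6.749% of all 32851 of that length. The 30-base windows around it, each given 5′ to 3′ on the gene's own strand with the motif in capitals, are as follows.
Mmp13: accccaaagtggTGACTCAtcactatcatg
Mmp12: tgacatcaacagTGAGTCAgatagaggatt
Mmp1b: tgttacaaagccTGAGTCAtatagcctctg
Mmp3: tggaagcaattaTGAGTCAgttttcgggtg
Mmp1a: tgttgtcaaccaTGAGTCAcatagcctctg
Mmp10: atagcacccatgTGAGTCAtgcttagtgac
Mmp20: ccatttgagacaTGAATCAtcacttacagg
Mmp7: aaagtgtgcaaaTGAGTCAcctatttccac

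These windows lie at chr9:7272467-7272496 for Mmp13, chr9:7347318-7347347 for Mmp12, chr9:7445764-7445793 for Mmp3, chr9:7502267-7502296 for Mmp10 and chr9:7692015-7692044 for Mmp7, all on the plus strand (GRCm38.p6). The motif starts between 35 and 95 bases before the transcription start. Mmp13 is the cluster gene that differed most between the groups, so its 250 bases (chr9:7272264-7272513, plus strand) are given whole, with matches to the RUNX motif AACCACA, to AP-1 and to the TATA motif TATAAA in capitals.
Mmp13: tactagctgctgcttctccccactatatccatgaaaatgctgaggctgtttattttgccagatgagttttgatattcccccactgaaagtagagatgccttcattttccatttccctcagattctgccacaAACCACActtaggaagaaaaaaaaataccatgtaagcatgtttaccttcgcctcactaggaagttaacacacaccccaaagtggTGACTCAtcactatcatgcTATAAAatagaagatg
Both strands were searched for each motif, and no matches overlapped one another in this sequence. The RUNX motif matched 3 of the 36 members with an entry (Mmp13, Mmp27 and Mmp7), and TATAAA matched 10 of the 36. A gene counted as matched if any of its entries matched, and Mmp7, Mmp12 and Mmp23 each have a second entry. In Mmp7 the AP-1 match precedes the first start along the chromosome and the RUNX match the second. In Mmp12 AP-1 matched before the second start alone. Counted by promoter, RUNX matched 3 of the members' 39 and 4.396% of all promoters, and TATAAA 10 of the 39 and 12.368%. A match is a run of letters and does not show that a factor binds there.

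Levels are log2 of the scanner's processed signal minus the array's 75th percentile, so 0 is the level below which 75% of spots lie. Each probe has its own brightness, and a level is compared between groups for 1 gene, never between genes. A spot that the scanner software did not call well above background is termed dim here. On the 10 arrays 53.3 to 58.4% of spots were above background, no spot was saturated, and duplicates correlated at 0.994 to 0.996 across genes. The 8 arrays of the primary cultures shared a slide, with wild-type cultures in the first line of positions and null cultures in the second, and the 2 tumor line arrays sat alone on another slide. Position and genotype, and slide and tumor line, therefore cannot be told apart. Mean Rb1 levels (n = 2) were 1.91 and 0.60 in wild-type and null BM-MSC, 1.31 and -1.94 in wild-type and null ASC, with -1.97 in the tumor line. Those of Trp53, which encodes p53, were 0.77, -1.003, 1.06, -4.81 and -7.58 (dim) in that order. Among the 3 groups that carry the deletion, null BM-MSC thus kept the highest level of both. The sources used here do not place these probes relative to the deleted exons. All 9 mesenchymal stem cell markers were above background in every group, and all 9 osteoblast markers in both BM-MSC groups. Where a bulk level differs, fewer cells of a type and less RNA per cell cannot be told apart.

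Of the 51 members, 38 cleared background on both arrays in 1 or more groups and were tested, and 22 were above background on all 10 arrays. The 13 not tested were the collagenases Mmp1a, Mmp1b and Mmp8, the membrane-anchored Mmp16 and Mmp25, Mmp20, Mmp21, Mmp27 and Mmp28, Adamts13, Adamts19 and Adamts20, and Timp4. Among them 9 were dim on every array. Mmp8, the neutrophil collagenase, was above background on 1 array of the tumor line, Mmp27 on 1 of null ASC, and Mmp28 on 1 of each BM-MSC group. Tests are from 1 limma model over the 10 arrays, two-sided, with p-values adjusted by Benjamini-Hochberg over 22595 genes and a threshold of 0.05. Changes are log2 differences of group means ± SE, 2 arrays against 2. P-values reflect only how far duplicate cultures lie apart.

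**Figure D1:**
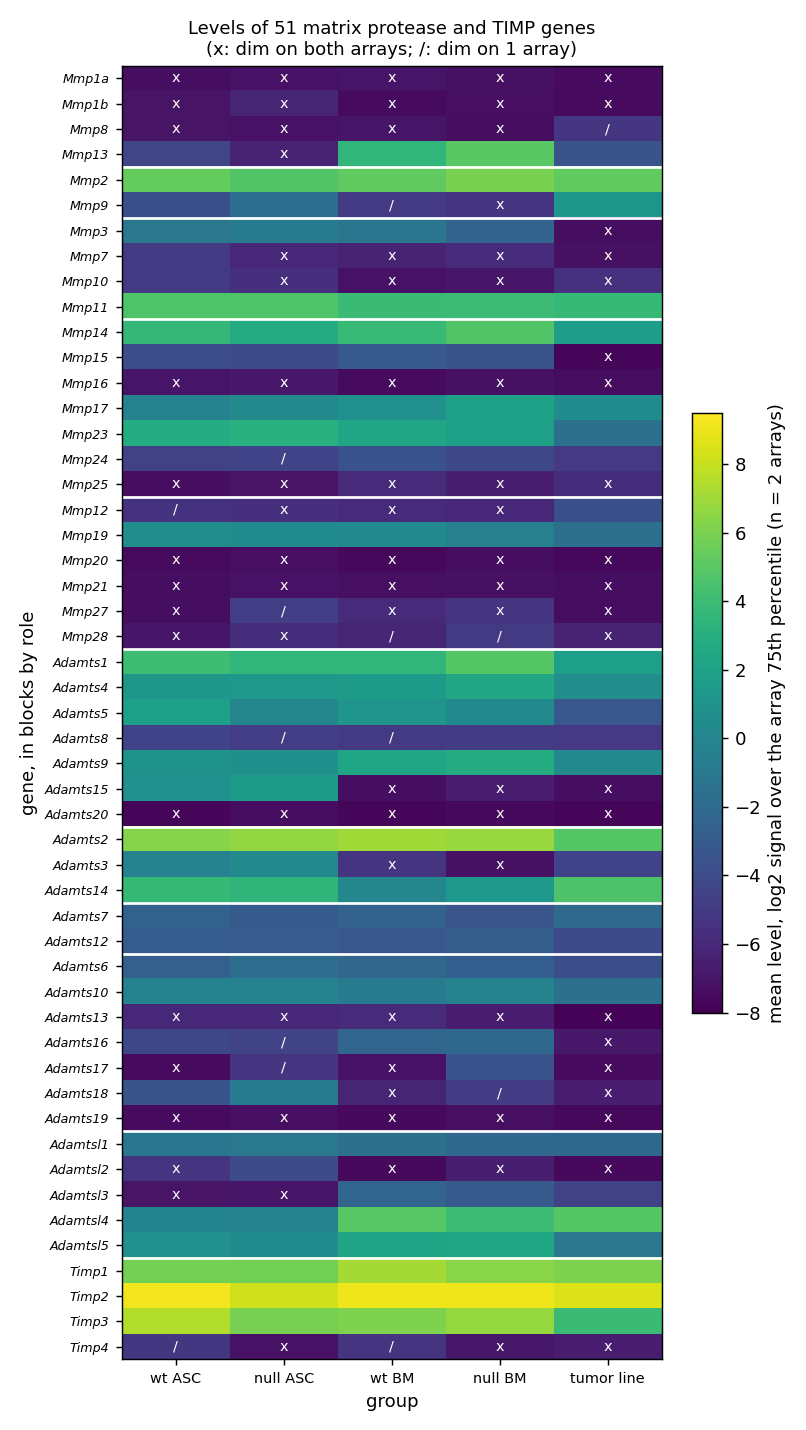
Mean level of each of the 51 members (rows, in blocks by role) in the 5 groups (columns; n = 2 arrays each), as log2 signal over the array 75th percentile; a cross marks a group with both arrays dim and a stroke a group with 1 dim array. Colours compare groups within a row, and rows have their own probe brightness. Mmp13 is bright in the 2 BM-MSC columns, Adamts15 in the 2 ASC columns and Mmp9 in the tumor line column.

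Mmp13, the collagenase that could be tested, was read in marrow cells and near background elsewhere. It cleaves fibrillar collagen and is the main interstitial collagenase of the mouse, and its probe lies at chr9:7282762-7282821 on the plus strand (mm9). Its levels were -4.54 and -4.20 in wild-type ASC, -6.28 and -6.27 in null ASC (both dim), 3.48 and 3.62 in wild-type BM-MSC, 5.045 and 4.94 in null BM-MSC, and -3.63 and -3.33 in the tumor line. All 4 BM-MSC arrays stood far above the other 6, and null BM-MSC lay above wild-type BM-MSC with no overlap. Mmp13 rose by 1.44 ± 0.14 (adjusted p = 0.000431) in null BM-MSC over wild-type BM-MSC. In null ASC it was at least 1.72-fold lower than in wild-type ASC (adjusted p = 0.000111; -0.44 with normexp), means -6.27 and -4.37. Normexp is another background correction, which adds an offset of 50 to every signal and draws dim signals together, and its fitted log2 difference is printed where it departed by over 1.5 times. "At least" marks a bound, computed with the lowest signal above background on the array in place of a dim signal. The effect of the null state was more positive in marrow than in fat by 3.35 ± 0.20 (adjusted p = 0.000116), and by 1.85 with normexp background correction, 2.55 with the deposited matrix values and 2.22 with dim signals raised to the floor. Null BM-MSC held at least 1128-fold more Mmp13 signal than null ASC (adjusted p = 5.49e-08; 7.997 with normexp), and wild-type BM-MSC stood 7.92 ± 0.14 (adjusted p = 1.51e-07) above wild-type ASC. In the tumor line Mmp13 was lower than in null BM-MSC by 8.48 ± 0.14 (adjusted p = 7.26e-08), a 356-fold difference. With normexp background correction these last 2 differences were 6.15 and -7.31. Of the 9 osteoblast markers, 6 were higher and none lower in null than in wild-type BM-MSC, where 39.5% of all genes tested were called (19.3% higher). In the tumor line 7 were lower and 2 higher than in null BM-MSC, where 69.5% of all genes were called (34.6% higher, 35% lower). The 2 higher were Spp1 (osteopontin), by 3.37 ± 0.24 (adjusted p = 2.80e-05), and Phex, by 1.52 ± 0.32 (adjusted p = 0.00525). Sp7, Bglap and Ibsp were among the 7 lower: in null BM-MSC their levels were 1.39, 3.43 and 5.69, and in the tumor line -5.80, -5.82 and -4.41. The summed linear signal of the 9 osteoblast markers, in multiples of the array 75th percentile, was 165 to 190 in wild-type BM-MSC, 234 to 249 in null BM-MSC and 235 to 242 in the tumor line, where Sp7, Alpl and Bglap were dim. The part of osteoblast-like cells in the Mmp13 result was not tested.

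**Figure D2:**
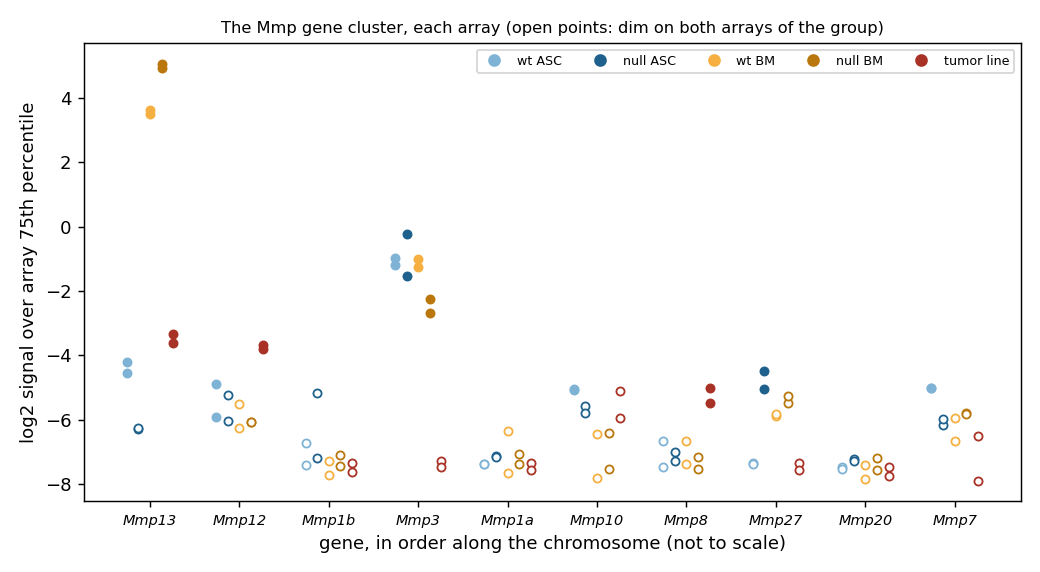
Level on each array (points, coloured by group) of the 10 Mmp genes of the chromosome 9 cluster, in order along the chromosome and not to scale; the y axis is log2 signal over the array 75th percentile, and open points mark a group with both arrays dim. Mmp13 reaches 3.48 to 5.045 in BM-MSC, Mmp3 is above background in the primary cultures and dim in the tumor line, and Mmp12 is highest in the tumor line.

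The gelatinases parted in the tumor line, where Mmp9 stood above every other group and Mmp2 did not. Mmp9, gelatinase B, is read at chr2:164780620-164780679 on the plus strand (mm9). Its levels were -3.66 and -3.73 in wild-type ASC, -1.70 and -1.60 in null ASC, -5.39 and -4.71 in wild-type BM-MSC (1 dim), -5.44 and -5.34 in null BM-MSC (both dim), and 1.22 and 1.29 in the tumor line. The 2 tumor line arrays stood above the other 8, null ASC came next, and the BM-MSC arrays lay lowest. Mmp9 was at least 87.2-fold higher in the tumor line than in null BM-MSC (adjusted p = 6.25e-07; 4.10 with normexp), means 1.25 and -5.39. Against wild-type BM-MSC it was higher by 6.31 ± 0.20 (adjusted p = 7.73e-07), or 4.13 with normexp background correction and 5.69 with the deposited matrix values. In null ASC it rose over wild-type ASC by 2.05 ± 0.20 (adjusted p = 0.000353), or 1.14 with normexp. In null against wild-type BM-MSC the value was -0.34 ± 0.20 (adjusted p = 0.242), and the null effect in marrow minus that in fat was -2.39 ± 0.28 (adjusted p = 0.00136), or -1.11 with normexp. Null BM-MSC lay at least 11.7-fold below null ASC (adjusted p = 1.08e-05; -1.57 with normexp). Wild-type BM-MSC, with 1 array dim, lay 1.36 below wild-type ASC (values -1.69 to -0.45 over the alternatives).

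Mmp9 is also a myeloid gene, so the macrophage markers are given beside it. In the tumor line 9 of 10 were above background on both arrays, against 7 of 10 in null BM-MSC. Tyrobp, an adaptor of myeloid receptors, was at -1.92 and -1.95 in the tumor line and dim on the other 8 arrays, and Lyz2, a macrophage and granulocyte lysozyme, was at -1.81 and -1.65 against -6.11 and -5.34 (dim) in null BM-MSC. Ptprc, the pan-leukocyte CD45, was at -5.69 and -5.49 in the tumor line and between -5.71 and -4.98 on the other 8 arrays. Of the 10 markers, 6 were higher and 2 lower in the tumor line than in null BM-MSC, with a median log2 change of 0.86. There 69.5% of all genes tested were called (34.6% higher, 35% lower). Against wild-type BM-MSC 5 markers were higher and 3 lower, where 67.8% of all genes were called (33% higher, 34.8% lower). The 2 lower than in null BM-MSC were Itgam, by 1.43 ± 0.12 (adjusted p = 6.80e-05), and Csf1r, by 0.76 ± 0.071 (adjusted p = 9.81e-05). The summed linear signal of the 10 markers, which the brightest of them dominate, was 13.9 to 14.8 in the tumor line, 22.4 to 23.5 in null BM-MSC and 28.8 to 29.1 in wild-type BM-MSC, in multiples of the array 75th percentile. The neutrophil genes S100a8, S100a9, Ngp and Ltf were dim in every group. The part of myeloid cells in the Mmp9 signal was not tested.

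Mmp2, gelatinase A, is activated at the cell surface by Mmp14 together with Timp2. Its levels were 5.31 and 5.48 in wild-type ASC, 4.69 and 4.85 in null ASC, 5.27 and 5.24 in wild-type BM-MSC, 6.01 and 5.99 in null BM-MSC, and 5.27 and 5.24 in the tumor line. Null BM-MSC was the highest group and null ASC the lowest, while wild-type BM-MSC and the tumor line coincided. Mmp2 rose by 0.74 ± 0.076 (adjusted p = 0.000511) in null BM-MSC and fell by 0.63 ± 0.076 (adjusted p = 0.000878) in null ASC. The 2 effects differed by 1.37 ± 0.11 (adjusted p = 0.000292). The tumor line lay 0.74 ± 0.076 (adjusted p = 0.000148) below null BM-MSC, and its difference from wild-type BM-MSC was -0.0023 ± 0.076 (adjusted p = 0.982).

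Mmp3, stromelysin 1, was present in all primary cultures and dim in the tumor line. It cuts many matrix proteins and activates other MMP precursors. Its levels were -1.20 and -0.98 in wild-type ASC, -1.52 and -0.24 in null ASC, -1.01 and -1.27 in wild-type BM-MSC, -2.70 and -2.25 in null BM-MSC, and -7.28 and -7.47 in the tumor line (both dim). Wild-type ASC, null ASC and wild-type BM-MSC overlapped, null BM-MSC lay below them, and the 2 tumor line arrays were lowest. The tumor line was at least 8.04-fold below null BM-MSC (adjusted p = 4.90e-05; -1.29 with normexp) and at least 20.3-fold below wild-type BM-MSC (adjusted p = 1.57e-05; -2.16 with normexp). Null against wild-type BM-MSC gave -1.33 ± 0.40 (adjusted p = 0.0387). That call ended in 11 of 19 alternatives, among them leaving out any of the 8 arrays other than null ASC, with values of -1.56 to -0.87 and adjusted p of 0.00388 to 0.170. Null BM-MSC lay 1.59 ± 0.40 (adjusted p = 0.0140) below null ASC, a difference that was -1.37 and not past the threshold without null BM-MSC array 1 (adjusted p = 0.0759; 0.000761 to 0.0759 over the alternatives). It was -2.24 without null ASC array 1 and -0.95 without null ASC array 2.

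Mmp10 and Mmp7 were near background and could be read in wild-type ASC alone. Mmp10, stromelysin 2, was there at -5.08 and -5.04, with -6.46 and -7.80 in wild-type BM-MSC, -5.57 and -5.78 in null ASC, -6.40 and -7.54 in null BM-MSC and -5.12 and -5.94 in the tumor line, all 4 groups dim. Mmp7, matrilysin, the short MMP without a hemopexin domain, was at -5.00 and -5.00 in wild-type ASC, and its dim levels in the other groups ran from -7.89 to -5.78. Wild-type BM-MSC was at least 1.41-fold below wild-type ASC for Mmp10 (adjusted p = 0.0183; -0.40 with normexp; 0.00528 to 0.105 over the alternatives) and at least 1.46-fold for Mmp7 (adjusted p = 0.0432; -0.30 with normexp; 0.00519 to 0.200). Both calls ended under several alternatives, 4 of 19 and 10 of 19, among them leaving out either wild-type ASC array or wild-type BM-MSC array 2, with values of -2.74 to -0.40 and -1.67 to -0.30. Mmp11, stromelysin 3, which is activated inside the cell by furin, lay between 3.66 and 4.74 on all arrays. It was lower in marrow than in fat by 0.71 ± 0.056 (adjusted p = 6.33e-05) in null cells and 0.78 ± 0.056 (adjusted p = 4.33e-05) in wild-type cells, and lower in the tumor line by 0.29 ± 0.056 (adjusted p = 0.00336) than in null BM-MSC and by 0.21 ± 0.056 (adjusted p = 0.0134) than in wild-type BM-MSC. The last call ended without wild-type BM-MSC array 1 or tumor line array 1 (adjusted p 0.00169 to 0.0688 over the alternatives).

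Among the membrane-anchored proteases Mmp14, the type I membrane enzyme that activates the Mmp2 precursor, went opposite ways in null marrow and null fat cells. Its probe lies at chr14:55058775-55058834 on the plus strand (mm9), and its levels were 3.53 and 3.74 in wild-type ASC, 2.80 and 2.70 in null ASC, 3.84 and 3.93 in wild-type BM-MSC, 4.73 and 4.73 in null BM-MSC, and 1.77 and 1.74 in the tumor line. Null BM-MSC was the highest group, null ASC lay below both wild-type groups, and the tumor line was lowest, with no overlap among these. Mmp14 rose by 0.85 ± 0.078 (adjusted p = 0.000341) in null BM-MSC and fell by 0.89 ± 0.078 (adjusted p = 0.000225) in null ASC, and these effects differed by 1.73 ± 0.11 (adjusted p = 0.000147). In the tumor line it was lower than in null BM-MSC by 2.97 ± 0.078 (adjusted p = 3.64e-07), a 7.86-fold difference, and lower than in wild-type BM-MSC by 2.13 ± 0.078 (adjusted p = 1.41e-06).

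Mmp17, which is held in the membrane by a lipid anchor, rose in both null groups. Its levels were -0.25 and -0.22 in wild-type ASC, 0.31 and 0.18 in null ASC, 1.001 and 0.72 in wild-type BM-MSC, 1.90 and 2.08 in null BM-MSC, and 0.50 and 0.47 in the tumor line. Each null group stood above its wild-type group, and marrow stood above fat. The rise was 1.13 ± 0.11 (adjusted p = 0.000383) in BM-MSC and 0.48 ± 0.11 (adjusted p = 0.0119) in ASC, where it was not past the threshold without wild-type ASC array 1 or null ASC array 1 (adjusted p 0.00137 to 0.0673 over the alternatives). The effects differed by 0.65 ± 0.15 (adjusted p = 0.0198), a call that ended without array 2 of wild-type ASC, null ASC or null BM-MSC (0.00277 to 0.0633). Against null BM-MSC the tumor line lay 1.51 ± 0.11 (adjusted p = 2.55e-05) lower.

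Mmp23, anchored through its N-terminal end, was high in every primary culture and low in the tumor line, with levels of 2.83 and 2.82 in wild-type ASC, 3.14 and 3.13 in null ASC, 2.37 and 2.26 in wild-type BM-MSC, 1.85 and 1.98 in null BM-MSC, and -1.53 and -1.58 in the tumor line. It fell by 0.40 ± 0.063 (adjusted p = 0.00320) in null BM-MSC and rose by 0.31 ± 0.063 (adjusted p = 0.00808) in null ASC. The 2 null groups thus stood on opposite sides of their wild-type groups. Against null BM-MSC the tumor line lay 3.47 ± 0.063 (adjusted p = 9.62e-08) lower, 11.1-fold, and 3.87 ± 0.063 (adjusted p = 7.35e-08) below wild-type BM-MSC. Mmp15, the type II membrane enzyme, was at -3.74 and -4.002 in wild-type ASC, -4.30 and -3.62 in null ASC, -3.14 and -3.14 in wild-type BM-MSC, -3.43 and -3.51 in null BM-MSC, and -7.62 and -7.79 in the tumor line (both dim). The tumor line was the group in which it was dim, at least 4.03-fold below null BM-MSC (adjusted p = 5.40e-06; -1.07 with normexp). Mmp24, a membrane enzyme best known from the nervous system, was at -5.00 and -4.03 in wild-type ASC, -5.051 and -3.95 in null ASC (1 dim), -3.65 and -3.48 in wild-type BM-MSC, -4.62 and -3.84 in null BM-MSC, and -4.94 and -5.20 in the tumor line, and its duplicates differed by up to 1.10. Its 1 call, tumor line below wild-type BM-MSC by 1.51 ± 0.48 (adjusted p = 0.0286), ended in 6 of 18 alternatives, among them leaving out any of those 4 arrays (values -1.64 to -0.51, adjusted p 0.00955 to 0.111).

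Mmp12, macrophage elastase, was above background on both arrays in the tumor line alone. Its levels were -5.92 and -4.89 in wild-type ASC (1 dim), -6.03 and -5.23 in null ASC (both dim), -6.26 and -5.52 in wild-type BM-MSC (both dim), -6.06 and -6.08 in null BM-MSC (both dim), and -3.81 and -3.67 in the tumor line. It was at least 2.88-fold higher there than in null BM-MSC (adjusted p = 0.00263; 0.37 with normexp) and at least 3.20-fold higher than in wild-type BM-MSC (adjusted p = 0.00395; 0.44 with normexp), and with the mean of its probes the differences were 1.05 and 1.08. Tyrobp and Lyz2 were, like Mmp12, highest in the tumor line. Of the 10 macrophage markers, 6 were higher and 2 lower there than in null BM-MSC, where 69.5% of all genes tested were called. The summed linear signal of the 10 markers was nevertheless lowest in the tumor line. Their part in the Mmp12 result was not tested. Mmp19, an MMP outside the main classes, was at 0.56 and 0.61 in wild-type ASC, 0.39 and 0.47 in null ASC, 0.44 and 0.37 in wild-type BM-MSC, -0.43 and -0.32 in null BM-MSC, and -1.51 and -1.53 in the tumor line. It fell by 0.77 ± 0.058 (adjusted p = 0.000152) in null BM-MSC, and the tumor line lay a further 1.15 ± 0.058 (adjusted p = 5.42e-06) lower. In null against wild-type ASC the value was -0.15 ± 0.058 (adjusted p = 0.0799).

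Of the proteoglycan-cutting ADAMTS genes, Adamts1, Adamts4 and Adamts9 rose in null marrow cells and Adamts5 fell, and these 4 were lower in the tumor line than in null BM-MSC. Adamts1, which cuts versican and aggrecan, is read at chr16:85795044-85795103 on the minus strand (mm9), with levels of 4.08 and 4.06 in wild-type ASC, 3.52 and 3.49 in null ASC, 3.44 and 3.57 in wild-type BM-MSC, 4.91 and 4.92 in null BM-MSC, and 1.89 and 1.86 in the tumor line. Null BM-MSC stood above all other arrays and the tumor line below all others. Adamts1 rose by 1.41 ± 0.054 (adjusted p = 1.31e-05) in null BM-MSC (2.65-fold) and fell by 0.57 ± 0.054 (adjusted p = 0.000315) in null ASC. The effects differed by 1.97 ± 0.076 (adjusted p = 3.02e-05), and the tumor line lay 3.04 ± 0.054 (adjusted p = 9.00e-08) below null BM-MSC. Adamts4, aggrecanase 1, was at 1.26 and 1.21 in wild-type ASC, 1.22 and 1.46 in null ASC, 1.55 and 1.52 in wild-type BM-MSC, 2.41 and 2.45 in null BM-MSC, and 0.60 and 0.66 in the tumor line. It rose by 0.89 ± 0.082 (adjusted p = 0.000330) in null BM-MSC, gave 0.11 ± 0.082 (adjusted p = 0.327) in null ASC, and was lower by 1.80 ± 0.082 (adjusted p = 3.32e-06) in the tumor line than in null BM-MSC.

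Adamts5, aggrecanase 2, fell in both null groups and again in the tumor line. Its levels were 1.87 and 1.92 in wild-type ASC, 0.17 and -0.14 in null ASC, 1.23 and 1.07 in wild-type BM-MSC, 0.44 and 0.34 in null BM-MSC, and -3.12 and -3.43 in the tumor line. The fall was 0.76 ± 0.14 (adjusted p = 0.00566) in BM-MSC and 1.87 ± 0.14 (adjusted p = 0.000110) in ASC, and these differed by 1.11 ± 0.20 (adjusted p = 0.00668). Against null BM-MSC the tumor line lay 3.67 ± 0.14 (adjusted p = 1.53e-06) lower, or -2.78 with normexp background correction. Adamts9, a versican- and aggrecan-cutting member, was higher in marrow than in fat, at 0.98 and 1.07 in wild-type ASC, 0.73 and 0.80 in null ASC, 2.23 and 2.36 in wild-type BM-MSC, 2.85 and 2.88 in null BM-MSC, and 0.16 and 0.27 in the tumor line. It rose by 0.57 ± 0.070 (adjusted p = 0.00113) in null BM-MSC, a call lost with the mean of its 2 probes (adjusted p 2.95e-05 to 0.0688 over the alternatives), and stood 2.10 ± 0.070 (adjusted p = 1.34e-06) higher in null BM-MSC than in null ASC. Against null BM-MSC the tumor line lay 2.65 ± 0.070 (adjusted p = 3.82e-07) lower, or -1.73 with the mean of its probes. Adamts8 stayed between -5.25 and -4.43 and passed no test.

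Adamts15, a further proteoglycan-cutting member, was read in fat cells and not in marrow cells. Its probe lies at chr9:30707033-30707092 on the minus strand (mm9), on the chromosome of the Mmp cluster but away from it. Its levels were 0.81 and 0.91 in wild-type ASC, 1.46 and 1.54 in null ASC, -7.13 and -7.62 in wild-type BM-MSC (both dim), -6.63 and -6.51 in null BM-MSC (both dim), and -7.24 and -7.44 in the tumor line (both dim). The 4 ASC arrays were above background and the other 6 dim. Its signal was at least 109-fold lower in null BM-MSC than in null ASC (adjusted p = 1.89e-07; -4.23 with normexp) and at least 85.2-fold lower in wild-type BM-MSC than in wild-type ASC (adjusted p = 1.96e-07; -3.85 with normexp). In null ASC it rose over wild-type ASC by 0.64 ± 0.16 (adjusted p = 0.0193), a call that ended without any of the 4 ASC arrays (adjusted p 8.54e-05 to 0.0842, values 0.59 to 0.69).

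**Figure D3:**
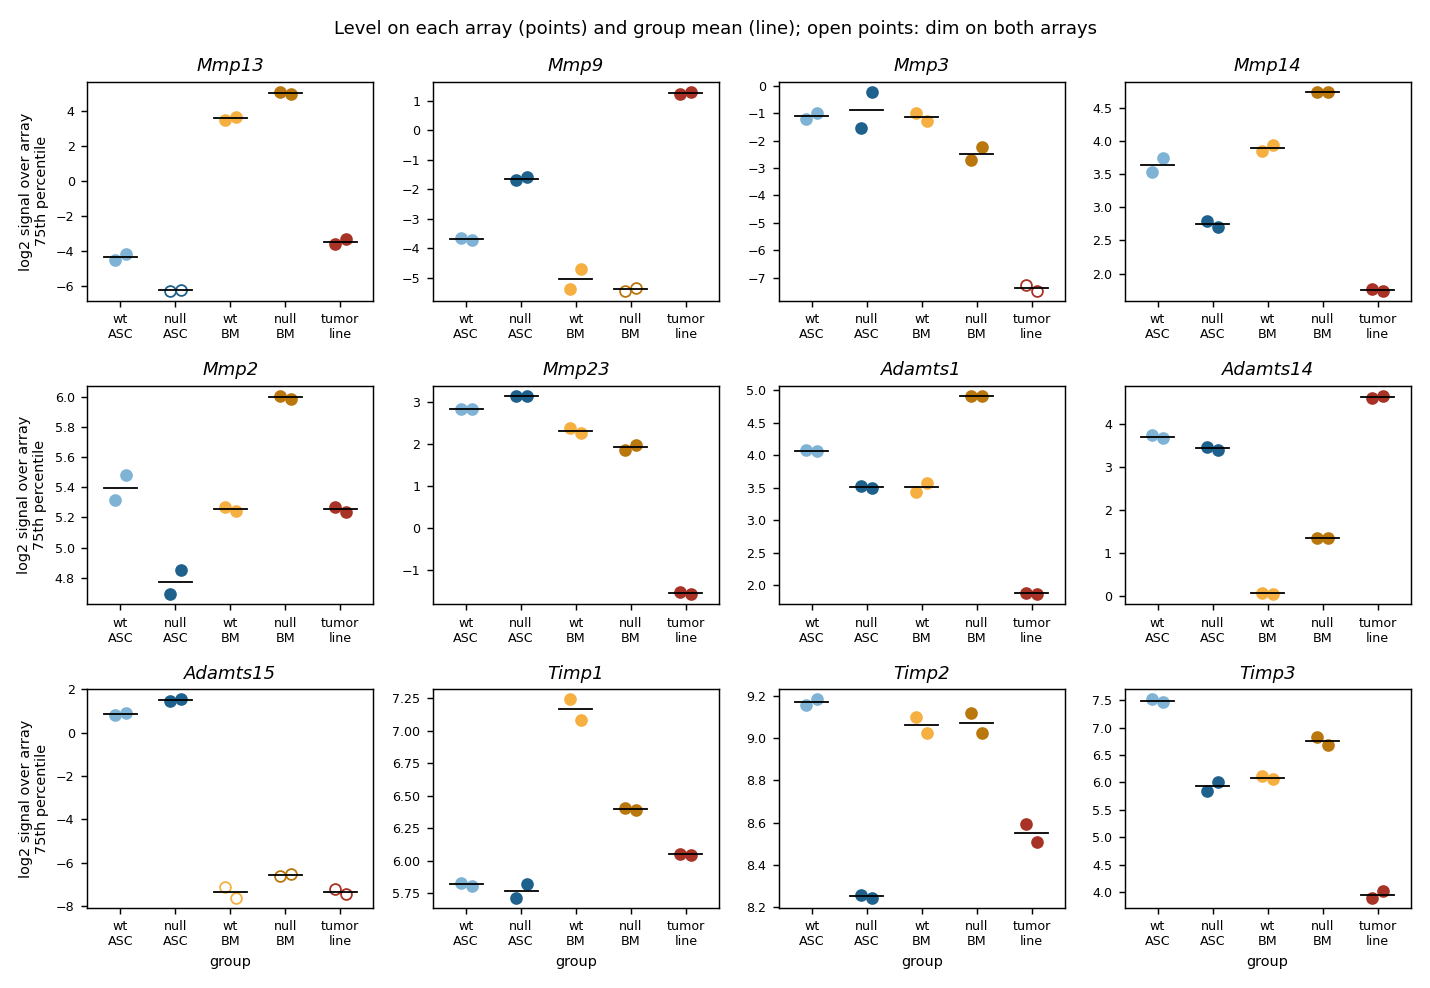
Level on each array (points) and group mean (line) of 12 members, 1 panel each, with the 5 groups on the x axis and log2 signal over the array 75th percentile on the y axis, each panel on its own scale; open points mark a group with both arrays dim. Mmp13 and Adamts15 separate marrow from fat in opposite ways, Mmp9 and Adamts14 are highest in the tumor line, and Mmp14, Mmp2, Adamts1 and Timp3 peak in null BM-MSC among the marrow-derived groups.

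The 3 procollagen N-proteinases each had their own pattern. Adamts14 is read at chr10:60659860-60659919 on the minus strand (mm9), and its levels were 3.74 and 3.67 in wild-type ASC, 3.47 and 3.40 in null ASC, 0.084 and 0.055 in wild-type BM-MSC, 1.35 and 1.37 in null BM-MSC, and 4.61 and 4.66 in the tumor line. The tumor line stood highest, both ASC groups came next, and wild-type BM-MSC was lowest. It rose by 1.29 ± 0.048 (adjusted p = 1.16e-05) in null BM-MSC and was higher again by 3.28 ± 0.048 (adjusted p = 4.72e-08) in the tumor line, 9.68-fold over null BM-MSC. In null ASC it fell by 0.27 ± 0.048 (adjusted p = 0.00426), a call lost with the mean of its 2 probes (adjusted p 0.000353 to 0.168 over the alternatives). The null effects differed by 1.56 ± 0.067 (adjusted p = 3.99e-05). Wild-type BM-MSC lay 3.64 ± 0.048 (adjusted p = 5.91e-08) below wild-type ASC, or -2.89 with that mean.

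Adamts2, which removes the N-terminal propeptide of fibrillar procollagens, was at 6.29 and 6.31 in wild-type ASC, 6.63 and 6.71 in null ASC, 7.03 and 6.93 in wild-type BM-MSC, 6.83 and 6.77 in null BM-MSC, and 4.88 and 4.84 in the tumor line. The tumor line was clearly lowest, 1.94 ± 0.056 (adjusted p = 5.46e-07) below null BM-MSC. Its change of -0.18 ± 0.056 (adjusted p = 0.0492) in null BM-MSC stood at the threshold and ended in 16 of 20 alternatives, among them leaving out any of the 10 arrays and the replicate block (adjusted p 0.0124 to 0.774). Adamts3, which also processes the lymphatic growth factor VEGF-C, was a gene of fat cells: -0.17 and -0.26 in wild-type ASC, 0.30 and 0.39 in null ASC, -4.89 and -5.77 in wild-type BM-MSC (both dim), -7.02 and -7.35 in null BM-MSC (both dim), and -4.31 and -4.65 in the tumor line. Its signal was at least 48.6-fold lower in null BM-MSC than in null ASC (adjusted p = 2.24e-06; -3.26 with normexp) and at least 34.7-fold lower in wild-type BM-MSC than in wild-type ASC (adjusted p = 1.35e-05; -2.66 with normexp). In the tumor line it was above background and at least 1.72-fold higher than in null BM-MSC (adjusted p = 0.000172; 0.23 with normexp; 3.65e-06 to 0.0839 over the alternatives), a call lost with normexp.

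Adamts7 and Adamts12 cut cartilage oligomeric matrix protein. Adamts7 was at -2.46 and -2.62 in wild-type ASC, -3.10 and -3.04 in null ASC, -2.55 and -2.39 in wild-type BM-MSC, -3.40 and -3.40 in null BM-MSC, and -1.84 and -1.99 in the tumor line. It fell by 0.93 ± 0.087 (adjusted p = 0.000371) in null BM-MSC and by 0.53 ± 0.087 (adjusted p = 0.00334) in null ASC, and was higher in the tumor line than in null BM-MSC by 1.48 ± 0.087 (adjusted p = 1.05e-05), or 0.80 with normexp background correction. Adamts12 was at -2.92 and -2.88 in wild-type ASC, -2.82 and -3.18 in null ASC, -3.23 and -3.26 in wild-type BM-MSC, -2.77 and -2.86 in null BM-MSC, and -4.01 and -4.27 in the tumor line. The tumor line was lowest, by 1.33 ± 0.13 (adjusted p = 0.000139) against null BM-MSC (-0.68 with normexp). Its rise of 0.44 ± 0.13 (adjusted p = 0.0417) in null BM-MSC ended in 9 of 20 alternatives, among them leaving out any wild-type ASC, wild-type BM-MSC or null BM-MSC array (adjusted p 0.0158 to 0.166).

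Adamts10 and Adamts6, which are linked to fibrillin microfibrils, changed in different tissues. Adamts10 was at -0.25 and -0.13 in wild-type ASC, -0.22 and -0.30 in null ASC, -0.75 and -0.67 in wild-type BM-MSC, -0.17 and -0.16 in null BM-MSC, and -1.54 and -1.49 in the tumor line. It rose by 0.54 ± 0.061 (adjusted p = 0.000749) in null BM-MSC, a call lost with the mean of its 2 probes (adjusted p 0.000185 to 0.0573 over the alternatives), and the tumor line lay 1.35 ± 0.061 (adjusted p = 3.29e-06) below null BM-MSC. Adamts6 was at -2.64 and -2.62 in wild-type ASC, -1.63 and -1.93 in null ASC, -2.42 and -1.98 in wild-type BM-MSC, -2.52 and -2.97 in null BM-MSC, and -3.89 and -3.67 in the tumor line. It rose by 0.85 ± 0.21 (adjusted p = 0.0176) in null ASC, a call that ended without either wild-type ASC array or null ASC array 1 (adjusted p 0.00521 to 0.0928), and gave -0.55 ± 0.21 (adjusted p = 0.0815) in null BM-MSC. The effects differed by -1.40 ± 0.29 (adjusted p = 0.0133), or -0.74 with normexp, and the tumor line lay 1.03 ± 0.21 (adjusted p = 0.00415) below null BM-MSC.

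Adamts16 and Adamts18 split marrow from fat at low signal. Adamts16 was at -4.19 and -4.20 in wild-type ASC, -4.78 and -4.04 in null ASC (1 dim), -2.30 and -2.26 in wild-type BM-MSC, -2.25 and -1.93 in null BM-MSC, and -6.20 and -7.51 in the tumor line (both dim). It was higher in marrow, by 2.32 ± 0.43 (adjusted p = 0.00381) in null cells (1.08 with normexp, 1.22 with the mean of its probes), and at least 10.5-fold lower in the tumor line than in null BM-MSC (adjusted p = 8.31e-05; -1.45 with normexp), with fitted values of -5.42 and -4.11 without tumor line array 1 and 2. Adamts18 was at -3.39 and -3.50 in wild-type ASC, -0.82 and -0.63 in null ASC, -6.78 and -5.59 in wild-type BM-MSC (both dim), -5.02 and -4.89 in null BM-MSC (1 dim), and -5.65 and -7.53 in the tumor line (both dim). It was higher in fat, by 4.23 ± 0.63 (adjusted p = 0.00135) in null cells (-2.10 with normexp, -3.57 with the deposited matrix values). It rose by 2.72 ± 0.63 (adjusted p = 0.0142) in null ASC, and that call ended without any of the 4 ASC arrays (values 1.69 to 3.22, adjusted p 6.11e-06 to 0.0634).

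Adamts17 was at -7.48 and -7.48 in wild-type ASC (both dim), -7.22 and -3.33 in null ASC (1 dim), -7.33 and -7.01 in wild-type BM-MSC (both dim), -3.67 and -3.48 in null BM-MSC, and -7.36 and -7.67 in the tumor line (both dim), and the null ASC duplicates stood 3.89 apart. Adamts17 was at least 3.94-fold higher in null than in wild-type BM-MSC (adjusted p = 0.0418; 0.79 with normexp), a call that ended in 10 of 19 alternatives, among them leaving out any of the 8 arrays other than null ASC (values 0.79 to 3.76, adjusted p 9.69e-05 to 0.145). It was at least 3.75-fold lower in the tumor line than in null BM-MSC (adjusted p = 0.0171; -0.85 with normexp), which ended in 5 of 18 alternatives, among them leaving out any of those 4 arrays (values -4.10 to -0.85, adjusted p 1.12e-05 to 0.0697).

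Of the ADAMTS-like genes, Adamtsl4, whose protein binds fibrillin microfibrils, gave the clearest split between marrow and fat. Its probe lies at chr3:95480135-95480194 on the minus strand (mm9), and its levels were -0.086 and -0.088 in wild-type ASC, -0.26 and -0.30 in null ASC, 5.04 and 4.94 in wild-type BM-MSC, 4.07 and 3.99 in null BM-MSC, and 4.89 and 4.92 in the tumor line. Every marrow-derived array stood far above every fat array. The difference was 4.31 ± 0.054 (adjusted p = 5.49e-08) in null cells (19.8-fold) and 5.07 ± 0.054 (adjusted p = 3.39e-08) in wild-type cells (33.7-fold). Adamtsl4 fell by 0.96 ± 0.054 (adjusted p = 5.08e-05) in null BM-MSC and was higher by 0.88 ± 0.054 (adjusted p = 1.33e-05) in the tumor line than in null BM-MSC. The tumor line differed from wild-type BM-MSC by -0.082 ± 0.054 (adjusted p = 0.223).

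Adamtsl3 was likewise a marrow gene, at -7.49 and -6.60 in wild-type ASC (both dim), -6.75 and -7.29 in null ASC (both dim), -2.44 and -2.20 in wild-type BM-MSC, -3.22 and -3.03 in null BM-MSC, and -4.96 and -4.16 in the tumor line. Null BM-MSC exceeded null ASC at least 4.06-fold (adjusted p = 0.000177; 0.99 with normexp), and the tumor line lay 2.24 ± 0.38 (adjusted p = 0.00188) below wild-type BM-MSC, or -1.03 with normexp. Adamtsl5 was at 0.88 and 0.90 in wild-type ASC, 0.55 and 0.41 in null ASC, 2.21 and 2.23 in wild-type BM-MSC, 2.42 and 2.31 in null BM-MSC, and -1.11 and -1.06 in the tumor line. Against null BM-MSC the tumor line lay 3.44 ± 0.064 (adjusted p = 1.03e-07) lower, or -2.10 with the mean of its 2 probes. Its fall of 0.41 ± 0.064 (adjusted p = 0.00272) in null ASC was 0.084 with that mean (adjusted p = 0.386; 0.000266 to 0.386 over the alternatives), and its probes disagreed there.

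Adamtsl1, also called punctin, was at -1.08 and -1.17 in wild-type ASC, -1.02 and -0.98 in null ASC, -1.502 and -1.55 in wild-type BM-MSC, -1.97 and -2.14 in null BM-MSC, and -2.07 and -2.16 in the tumor line. Null BM-MSC lay 1.06 ± 0.073 (adjusted p = 3.57e-05) below null ASC, and its fall of 0.53 ± 0.073 (adjusted p = 0.00185) in null BM-MSC was lost with the mean of its 3 probes (adjusted p 0.000563 to 0.0656 over the alternatives). Adamtsl2 was at -5.28 and -5.34 in wild-type ASC (both dim), -3.77 and -4.05 in null ASC, -7.32 and -7.73 in wild-type BM-MSC (both dim), -7.07 and -6.02 in null BM-MSC (both dim), and -7.45 and -7.65 in the tumor line (both dim), above background in null ASC alone. It was at least 2.55-fold lower in null BM-MSC than in null ASC (adjusted p = 0.000611; -0.35 with normexp) and at least 2.63-fold higher in null than in wild-type ASC (adjusted p = 0.0157; 0.21 with normexp), and the second of these ended with normexp and without either wild-type ASC array or null ASC array 1 (adjusted p 0.00171 to 0.0834).

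Of the inhibitors, Timp3 rose in null marrow cells and fell in null fat cells and in the tumor line. Timp3 stays bound to the matrix and blocks ADAMTS and ADAM enzymes as well as MMPs. Its probe lies at chr10:85811696-85811755 on the plus strand (mm9), and its levels were 7.52 and 7.47 in wild-type ASC, 5.85 and 6.02 in null ASC, 6.11 and 6.06 in wild-type BM-MSC, 6.83 and 6.68 in null BM-MSC, and 3.90 and 4.01 in the tumor line. Wild-type ASC was highest, null BM-MSC stood above wild-type BM-MSC, and the tumor line was lowest. Timp3 rose by 0.67 ± 0.081 (adjusted p = 0.00106) in null BM-MSC and fell by 1.56 ± 0.081 (adjusted p = 3.05e-05) in null ASC, 2.95-fold. These effects differed by 2.23 ± 0.12 (adjusted p = 7.20e-05). The tumor line lay 2.80 ± 0.081 (adjusted p = 5.45e-07) below null BM-MSC (6.97-fold) and 2.13 ± 0.081 (adjusted p = 1.68e-06) below wild-type BM-MSC.

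Timp1, the secreted inhibitor that pairs with the Mmp9 precursor, fell in null BM-MSC. Its levels were 5.83 and 5.81 in wild-type ASC, 5.71 and 5.82 in null ASC, 7.24 and 7.09 in wild-type BM-MSC, 6.41 and 6.39 in null BM-MSC, and 6.05 and 6.05 in the tumor line. All marrow-derived arrays stood above all fat arrays, with wild-type BM-MSC highest. The fall was 0.77 ± 0.065 (adjusted p = 0.000239) in null BM-MSC, and null ASC gave -0.052 ± 0.065 (adjusted p = 0.565). The effects differed by -0.71 ± 0.091 (adjusted p = 0.00188). The tumor line lay 0.35 ± 0.065 (adjusted p = 0.00272) below null BM-MSC and 1.12 ± 0.065 (adjusted p = 9.92e-06) below wild-type BM-MSC.

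Timp2, which blocks MMPs and also helps Mmp14 to activate Mmp2, was at 9.16 and 9.18 in wild-type ASC, 8.26 and 8.24 in null ASC, 9.10 and 9.03 in wild-type BM-MSC, 9.12 and 9.02 in null BM-MSC, and 8.59 and 8.51 in the tumor line. Null ASC was the lowest group, the tumor line came next, the BM-MSC groups overlapped, and wild-type ASC lay just above them. Timp2 fell by 0.92 ± 0.056 (adjusted p = 5.40e-05) in null ASC, while null BM-MSC gave 0.0087 ± 0.056 (adjusted p = 0.926), and these effects differed by 0.93 ± 0.080 (adjusted p = 0.000413). The tumor line lay 0.52 ± 0.056 (adjusted p = 0.000198) below null BM-MSC. Timp4, the inhibitor known from heart and fat, was at -5.36 and -5.01 in wild-type ASC (1 dim), -7.11 and -7.22 in null ASC (both dim), -5.82 and -4.86 in wild-type BM-MSC (1 dim), -6.87 and -6.81 in null BM-MSC (both dim), and -6.61 and -6.61 in the tumor line (both dim) and was not tested.

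In null against wild-type BM-MSC the members moved about equally in both directions, with Mmp13, Adamts1, Adamts14 and Mmp17 among the largest rises of members read in both groups and Adamtsl4, Adamts7, Mmp19 and Timp1 among the falls. Of 38 tested members, 13 were higher and 10 lower past the threshold, where 39.5% of all genes tested were called (19.3% higher, 20.2% lower). Among those calls, 2 (Adamts15 and Adamts3) were dim in both groups. The median change was 0.15, against 0.0058 over all genes tested. Of the 22 members above background everywhere, 10 were higher and 8 lower, where 21.8% and 21.8% of such genes were.

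In null against wild-type ASC the falls of Mmp13, Adamts5, Timp3, Timp2 and Mmp14 and the rises of Mmp9 and Adamts18 were among the largest changes. The counts were 8 higher and 12 lower of 38, where 41.5% of all genes tested were called (20.3% higher, 21.2% lower). The median change was -0.10 against -0.028 over all genes. Of the 22 members above background everywhere, 4 were higher and 11 lower, where 22.5% and 23.8% of such genes were.

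The null effects in marrow and in fat come from separate arrays and can be set side by side. The targeted genes Rb1 and Trp53 themselves fell less in null BM-MSC (median log2 change -1.54) than in null ASC (-4.56). The part of that unequal fall in the results below was not tested. Past the threshold in both tissues were 14 of the 38 members, where 24.1% of all genes tested were, and 9 members went in opposite directions, where 5.22% of all genes tested did. Among the genes past the threshold in both tissues, the opposite-direction share was 64.3% of these members and 21.7% of all genes. Mmp13, Mmp14, Mmp2, Adamts1, Adamts14, Adamts9 and Timp3 rose in marrow and fell in fat, and Mmp23 and Adamts2 did the reverse. Adamts5, Adamts7 and Adamtsl4 fell in both, and Mmp17 and Adamts15 were higher in both, the latter dim in both marrow groups. The weakest of these calls was that of Adamts2 in marrow, which ended in 16 of 20 alternatives, among them leaving out any one array (adjusted p 0.0124 to 0.774). The fat calls of Adamts9 and Adamtsl4 ended in 5 of 20 and 5 of 20 alternatives (adjusted p 0.00645 to 0.659 and 0.00650 to 0.121), the first among others without wild-type ASC array 2 or either null ASC array, the second without any one ASC array. The fat call of Adamts15 ended without any one ASC array (4 of 19 alternatives), and that of Mmp17 without wild-type ASC array 1 or null ASC array 1 (2 of 20). When probes of 1 gene were averaged, the fat calls of Adamts14 and Adamts2 and the marrow call of Adamts9 also ended. The difference of the effects itself was past the threshold for 22 of 38, 13 more positive in marrow and 9 more positive in fat, where 31.8% of all genes tested were called (15.3% and 16.6%). In 19 of these the probe was above background in all 4 groups, and in Adamts3, Mmp13 and Mmp9 some group was dim. The Adamts3 difference of -2.41 ± 0.40 (adjusted p = 0.00545) was lost when dim signals were raised to a floor (-0.48, adjusted p = 0.428; 0.000549 to 0.428 over the alternatives).

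**Figure D4:**
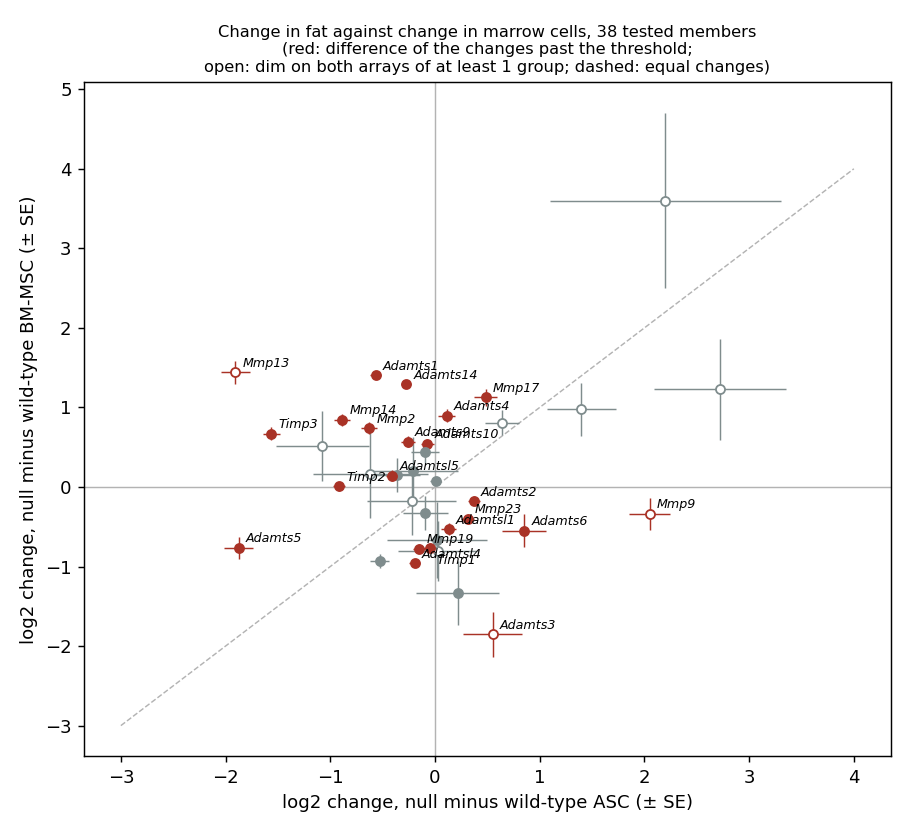
Log2 change from wild-type to null ASC (x axis) against that from wild-type to null BM-MSC (y axis) for the 38 tested members, with SE bars; red points passed the test of the difference between the 2 changes, open points were dim on both arrays of at least 1 group, and the dashed line marks equal changes. Mmp13, Timp3, Mmp14, Mmp2, Adamts1 and Adamts14 lie in the upper left, higher in null marrow cells and lower in null fat cells.

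Between the tissues, Mmp13, Mmp17, Adamtsl4, Adamtsl3, Adamtsl5, Adamts9 and Adamts16 were higher in marrow, in null and in wild-type cells. Adamts15, Adamts3, Adamts14, Adamts18 and Mmp9 were higher in fat, again in null and in wild-type cells. Of these calls, that of Adamts18 in wild-type cells (-2.74 ± 0.63 (adjusted p = 0.0102)) ended without wild-type BM-MSC array 1 (adjusted p 1.27e-05 to 0.0575 over the alternatives). In null BM-MSC against null ASC 14 members were higher and 13 lower of 38, where 55.4% of all genes tested were called (26% higher, 29.4% lower). In wild-type BM-MSC against wild-type ASC 12 were higher and 16 lower, where 54% were called (25.7% higher, 28.3% lower). Among those lower, 1 (Adamtsl2) was dim in both groups. The medians were 0.23 and -0.16, against -0.016 and -0.047 over all genes. Timp3 lay 0.82 ± 0.081 (adjusted p = 0.000191) higher in null BM-MSC than in null ASC and 1.41 ± 0.081 (adjusted p = 1.64e-05) lower in wild-type BM-MSC than in wild-type ASC.

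In the tumor line most tested members were lower than in the null marrow cells it came from. The count was 27 lower and 6 higher of 38, where 69.5% of all genes tested were called (34.6% higher, 35% lower). The higher ones were Mmp9, Mmp12, Adamts14, Adamts3, Adamts7 and Adamtsl4. Among the 33 calls, 3 were dim in both groups. The median change was -1.34, against -0.053 over all genes. Of the 22 members above background on all arrays, 18 were lower and 3 higher, where 36.6% of such genes were lower and 36.7% higher. Against wild-type BM-MSC 24 were lower and 6 higher, where 67.8% were called (33% higher, 34.8% lower), with a median of -0.89 against -0.060. Among those higher, 1 (Mmp10) was dim in both groups. The Adamts3 call, with wild-type BM-MSC dim, ended in 9 of 18 alternatives (values 0.17 to 1.35). The comparisons with null BM-MSC share those 2 arrays and the comparisons with wild-type BM-MSC share the others, so they are not independent of one another or of the null effect in marrow. The tumor line is 1 line on its own slide, and line, slide and tumor growth cannot be told apart.

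**Figure D5:**
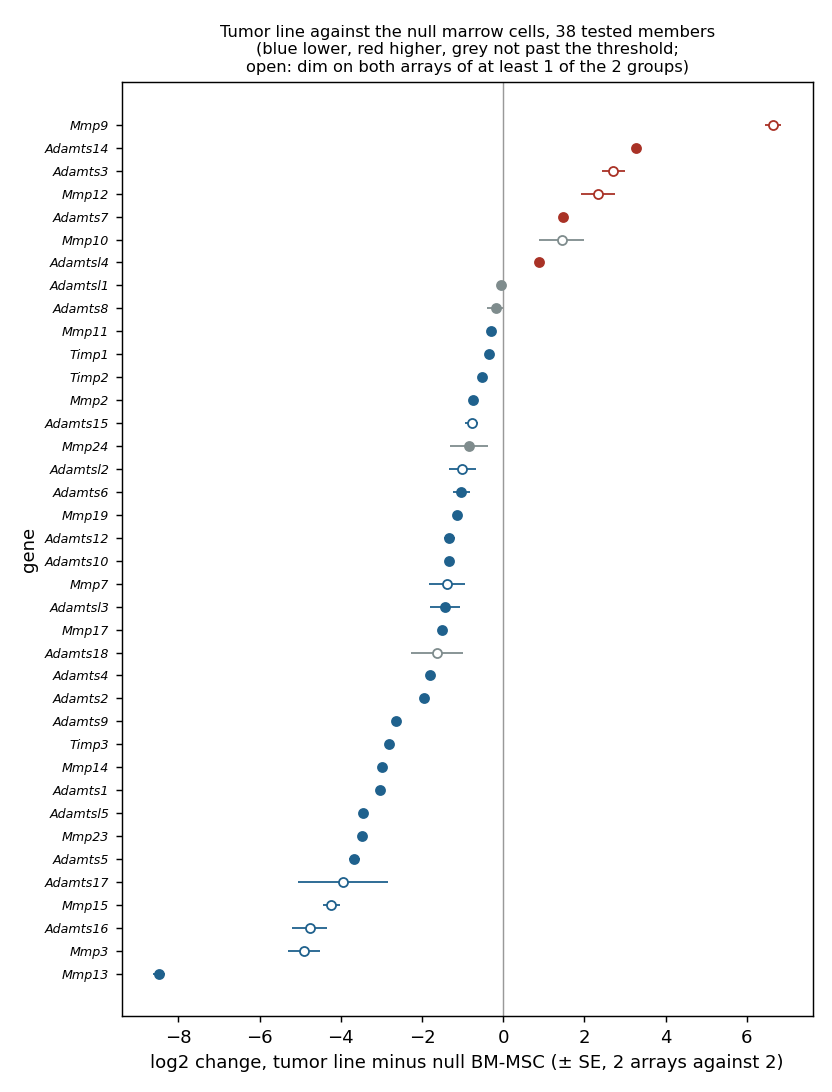
Log2 change from null BM-MSC to the tumor line (x axis, with SE bars, 2 arrays against 2) for the 38 tested members in order of change (y axis); blue points were lower, red higher and grey not past the threshold, and open points were dim on both arrays of at least 1 of the 2 groups. Mmp13 is at the lower end at -8.48 and Mmp9 at the upper end at 6.64, and 27 members lie on the lower side past the threshold.

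Genes that act on the same enzymes were read from lists chosen by function, with earlier results of these data known. Of all genes tested, 39.5% were called in null against wild-type BM-MSC (19.3% higher, 20.2% lower). The shares were 41.5% in null against wild-type ASC (20.3% and 21.2%) and 69.5% in the tumor line against null BM-MSC (34.6% and 35%). Other regulators of MMP activity gave 2 higher and 2 lower of 8 tested in null against wild-type BM-MSC, 1 and 6 in null against wild-type ASC, and 2 and 6 in the tumor line against null BM-MSC. Reck, a membrane-anchored inhibitor of MMPs, fell by 1.32 ± 0.088 (adjusted p = 7.36e-05) in null ASC. Thbs1, a matrix protein that binds MMPs, fell by 1.10 ± 0.084 (adjusted p = 0.000128) there and was lower by 4.47 ± 0.084 (adjusted p = 1.10e-07) in the tumor line than in null BM-MSC. Thbs2 rose by 0.97 ± 0.079 (adjusted p = 0.000210) in null BM-MSC and was lower by 3.33 ± 0.079 (adjusted p = 2.61e-07) in the tumor line, and Bsg, the surface protein known as an inducer of MMPs, fell by 0.47 ± 0.069 (adjusted p = 0.00221) in null BM-MSC.

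Factors known to induce MMP transcription gave 4 higher and 5 lower of 12 tested in null against wild-type BM-MSC, 3 and 5 in null against wild-type ASC, and 6 and 5 in the tumor line against null BM-MSC. Over all genes tested, 39.5%, 41.5% and 69.5% were called in that order. Fosl1, an AP-1 subunit, fell by 1.60 ± 0.15 (adjusted p = 0.000353) in null BM-MSC and was higher by 3.81 ± 0.15 (adjusted p = 1.75e-06) in the tumor line, with levels of -2.06 and -1.59 in wild-type ASC, -0.90 and -0.85 in null ASC, 1.09 and 0.89 in wild-type BM-MSC, -0.60 and -0.62 in null BM-MSC, and 3.17 and 3.24 in the tumor line. Its tumor line arrays stood above all others. Il6, the cytokine interleukin 6, fell by 2.39 ± 0.29 (adjusted p = 0.00102) in null BM-MSC (-1.45 with normexp) and by 1.88 ± 0.29 (adjusted p = 0.00247) in null ASC, and was at least 4.67-fold lower, and dim, in the tumor line (adjusted p = 4.24e-05; -0.99 with normexp). Fos, also an AP-1 subunit, fell by 1.14 ± 0.088 (adjusted p = 0.000131) in null ASC.

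Cathepsins and their cystatin inhibitors gave 4 higher and 1 lower of 8 tested in null against wild-type BM-MSC, 0 and 7 in null against wild-type ASC, and 3 and 5 in the tumor line against null BM-MSC. Over all genes tested, 39.5%, 41.5% and 69.5% were called in that order. Ctsk, the collagen-cutting cathepsin K, rose by 0.99 ± 0.039 (adjusted p = 1.41e-05) in null BM-MSC and was lower by 3.08 ± 0.039 (adjusted p = 3.37e-08) in the tumor line. Cst6 rose by 0.98 ± 0.062 (adjusted p = 7.79e-05) in null BM-MSC and fell by 0.998 ± 0.062 (adjusted p = 5.80e-05) in null ASC, where Ctsd, the lysosomal cathepsin D, fell by 1.15 ± 0.064 (adjusted p = 3.65e-05). Ctss, cathepsin S, was higher by 3.23 ± 1.01 (adjusted p = 0.0269) in the tumor line than in null BM-MSC, whose duplicates stood at -3.77 and -7.23. That call ended without either tumor line array and was 4.96 and 1.501 without null BM-MSC array 1 and 2 (values 0.91 to 4.96, adjusted p 0.000196 to 0.0944 over the alternatives). Osteoclasts also use Ctsk, and Ctsk is on the osteoclast marker list. The other 6 markers of that list summed to 21.0 to 21.3 in null BM-MSC, 6.86 to 7.30 in wild-type BM-MSC and 3.102 to 3.158 in the tumor line, in multiples of the array 75th percentile, most of it Acp5, whose mean levels were 4.37, 2.76 and 1.55, with Calcr and Dcstamp dim in every group. The part of such cells was not tested.

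The ADAM sheddases gave 1 higher and 3 lower of 7 tested in null against wild-type BM-MSC, 2 and 2 in null against wild-type ASC, and 4 and 2 in the tumor line against null BM-MSC. Adam8 fell by 2.23 ± 0.10 (adjusted p = 2.26e-05) in null BM-MSC and was higher by 4.54 ± 0.10 (adjusted p = 1.98e-07) in the tumor line, and Adam19 rose by 1.15 ± 0.045 (adjusted p = 1.38e-05) in null BM-MSC. Adam12 was lower by 1.43 ± 0.075 (adjusted p = 6.29e-06) in the tumor line, and Adam9 and Adam15 fell by 0.66 ± 0.066 (adjusted p = 0.000398) and by 0.59 ± 0.060 (adjusted p = 0.000423) in null ASC. The plasminogen system, which activates MMP precursors, gave 3 higher and 2 lower of 9 tested in null against wild-type BM-MSC, 2 and 3 in null against wild-type ASC, and 3 and 5 in the tumor line against null BM-MSC. Beside both lists, 39.5%, 41.5% and 69.5% of all genes tested were called in that order. Serpine2, a protease inhibitor, fell by 1.61 ± 0.10 (adjusted p = 6.98e-05) in null BM-MSC and was lower again by 2.13 ± 0.10 (adjusted p = 3.78e-06) in the tumor line.

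Tolloid and HtrA proteases and procollagen enhancers gave 4 higher and 0 lower of 6 tested in null against wild-type BM-MSC, 3 and 0 in null against wild-type ASC, and 1 and 4 in the tumor line against null BM-MSC. Over all genes tested, 39.5%, 41.5% and 69.5% were called in that order. The serine protease Htra1 rose by 1.27 ± 0.065 (adjusted p = 3.58e-05) in null BM-MSC and by 1.47 ± 0.065 (adjusted p = 1.84e-05) in null ASC, and was higher again by 1.67 ± 0.065 (adjusted p = 1.77e-06) in the tumor line. Htra3 rose by 1.11 ± 0.061 (adjusted p = 3.63e-05) in null ASC and was lower by 2.93 ± 0.061 (adjusted p = 1.61e-07) in the tumor line. Pcolce2, an enhancer of procollagen processing, gave a value in null against wild-type BM-MSC of 1.01 ± 0.29 (adjusted p = 0.0328), which ended in 10 of 19 alternatives, among them leaving out any of the 8 arrays other than null ASC (adjusted p 2.43e-05 to 0.127). Null BM-MSC exceeded null ASC at least 33.9-fold (adjusted p = 7.49e-06; 3.13 with normexp).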

How the data were processed

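Total RNA of 10 mouse mesenchymal cell cultures was read on single-colour Agilent arrays. The deposited scanner files hold probe intensity values that the authors extracted with Feature Extraction 10.7.3.1, per the submitters' processing notes, with background-subtracted processed signals and a flag for spots well above background, per the file headers. The deposited matrix of the whole series holds log2 values of the same arrays (correlation 0.989 to 0.993 with the scanner signals across probes), whose column medians are 5.04 to 5.06, and the sources used here do not give its scaling. The submitters' processing notes also name limma.

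Processed signals were taken as log2, each array's 75th percentile over usable non-control spots was subtracted, and spots of a probe were averaged. Of 55681 probes, 27214 took the RefSeq symbol of their accession, 3578 were matched by symbol and 565 by synonym, 41 differed in letter case, 24246 kept the name in the file, and 37 without a usable spot on some array were left out. The brightest probe stood for each gene, and 22595 genes that cleared background on both arrays in 1 or more groups were fitted together in limma 3.58.1 (R 4.3.3) with 5 residual degrees of freedom, a shared spread and Benjamini-Hochberg adjustment for each of 7 comparisons. A change had a median SE of 0.0946 over all genes, and 2 arrays a group limit the precision. The 75th percentile signal was 483 to 621 before scaling.

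The fit was also run on simulated arrays in which a small set of genes changed in null BM-MSC, as a check of the code. Far more genes change in the real data, so that run does not bear on the calls given here. Values on every array are given for the Timp genes and for members that passed the threshold by at least 2-fold without overlap in some comparison, other members are given by range, and each functional list is given by counts and its 2 largest called changes. A result for 1 list gene is not reported here. The members and lists were chosen with earlier results of these data known. Alternatives were quantile normalization, normexp background correction (offset 50), the deposited matrix, no filter or a stricter filter on dim probes, a floor on dim signals, the mean of a gene's probes, a trended robust prior, slide 1 alone, a replicate block and leaving out each array. The same alternatives for list genes were added after seeing the data. Probe coordinates are those of the files (mm9), and promoters are RefSeq's (GRCm38.p6).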

Additional observations from a re-analysis of the deposited data

Results flagged for a closer look

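The effect of the null state, null minus wild-type, differed between marrow and fat cells past the threshold for 22 members in limma's test of the difference itself, given here as the marrow effect minus the fat effect in log2 units (2 arrays in each of 4 groups). Among the metalloproteinases the difference was 3.35 ± 0.20 for Mmp13 (adjusted p = 0.000116), 1.73 ± 0.11 for Mmp14 (adjusted p = 0.000147), 1.37 ± 0.11 for Mmp2 (adjusted p = 0.000292) and 0.65 ± 0.15 for Mmp17 (adjusted p = 0.0198), positive in each, and -2.39 ± 0.28 for Mmp9 (adjusted p = 0.00136), -0.71 ± 0.089 for Mmp23 (adjusted p = 0.00171) and -0.62 ± 0.082 for Mmp19 (adjusted p = 0.00214). Among the inhibitors it was 2.23 ± 0.12 for Timp3 (adjusted p = 7.20e-05), 0.93 ± 0.080 for Timp2 (adjusted p = 0.000413) and -0.71 ± 0.091 for Timp1 (adjusted p = 0.00188). The null effect was thus more positive in marrow for Timp3 and Timp2, and more negative for Timp1.

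Among the proteoglycan-cutting enzymes the difference was 1.97 ± 0.076 for Adamts1 (adjusted p = 3.02e-05), 1.11 ± 0.20 for Adamts5 (adjusted p = 0.00668), 0.83 ± 0.10 for Adamts9 (adjusted p = 0.00144) and 0.78 ± 0.12 for Adamts4 (adjusted p = 0.00332), more positive in marrow for each. Among the procollagen proteinases it was 1.56 ± 0.067 for Adamts14 (adjusted p = 3.99e-05), -0.55 ± 0.080 for Adamts2 (adjusted p = 0.00319) and -2.41 ± 0.40 for Adamts3 (adjusted p = 0.00545). For the microfibril-linked genes it was 0.62 ± 0.086 for Adamts10 (adjusted p = 0.00259) and -1.40 ± 0.29 for Adamts6 (adjusted p = 0.0133), and for the ADAMTS-like genes 0.55 ± 0.090 for Adamtsl5 (adjusted p = 0.00510), -0.66 ± 0.10 for Adamtsl1 (adjusted p = 0.00432) and -0.76 ± 0.077 for Adamtsl4 (adjusted p = 0.000728). The calls of Adamts10, Adamts2, Adamts9, Adamtsl1 and Adamtsl5 were lost when a gene's probes were averaged. Position on the slide and genotype cannot be told apart in either tissue. The targeted genes Rb1 and Trp53 also fell less in marrow than in fat, with a median difference of effects of 3.02. The part of that in these differences was not tested.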

How the results depend on the processing

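Of 183 member results past the threshold, 7 were dim in both groups and are left out here. Of the other 176, 132 stayed past it in the same direction in every one of the 20 alternatives that gave a value, and 44 were lost in at least 1. The counts of members called were within 1.5 times of the main count except with the filter to genes above background on all 10 arrays, which tests 22 members and called 21 in the tumor line against null BM-MSC (33 of 38 otherwise) and 17 in wild-type BM-MSC against wild-type ASC (28 of 38 otherwise). In null against wild-type ASC the count ran from 14 to 21 without 1 array. Signs turned in 3 results. The null effect of Adamts15 in marrow, where both groups were dim, minus that in fat was -0.25 (adjusted p = 0.0389) with the deposited matrix against 0.17. When a gene's probes were averaged Adamtsl1 was 0.22 (adjusted p = 0.372) in wild-type BM-MSC against wild-type ASC and Adamtsl5 was 0.084 (adjusted p = 0.386) in null against wild-type ASC. The cause was not tested. With no filter on dim probes the median change of all genes in the tumor line against null BM-MSC was -0.18, against -0.05. Of 84 results of list genes, 77 were kept in all alternatives that gave a value.

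The replicate numbers did not pair the samples: deviations of same-numbered arrays correlated at -0.12 to 0.12 between groups. With the replicate block 241 of 244 member results stayed on their side of the threshold, 1 was lost (Adamts2 in null against wild-type BM-MSC) and 2 were gained. The block gave 22 members called in null against wild-type BM-MSC, 20 in null against wild-type ASC, 22 for the difference of these effects, 29 for null BM-MSC against null ASC, 29 for wild-type BM-MSC against wild-type ASC, 33 for the tumor line against null BM-MSC and 30 against wild-type BM-MSC. Each group holds 2 arrays, and members near background rest on signals that differ from dim spots by little.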
